A study of Mus musculus with 4 samples.

Results

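Aminoacyl-tRNA synthetases, the enzymes that load each transfer RNA with its amino acid, were examined in RNA-seq libraries of mouse embryonic stem (ES) cells. The members were the 20 genes listed for the cytosolic enzymes and 16 genes for the mitochondrial enzymes, whose symbols end in 2, matched by symbol to the deposited Ensembl identifiers. All 36 were found among 37224 identifiers, all 36 are autosomal, and all passed the filter on low counts. The libraries were 2 of Smg6-deficient ES cells and 2 of wild-type ES cells, with no treatment or time given in the labels. The Smg6 protein cuts mRNAs in nonsense-mediated decay (NMD), the pathway that removes mRNAs with a premature stop codon. The labels name neither the alteration of Smg6 nor the line, clone or feeder layer, nor whether libraries of 1 group came from separate cultures, so the p-values reflect library-to-library spread that could be purely technical. The question was which synthetase transcripts differ in level between Smg6-deficient and wild-type cells, and whether the cytosolic and mitochondrial enzymes differ alike.

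Each synthetase joins 1 amino acid to its tRNAs in an ATP-dependent reaction, and the charged tRNAs then serve the ribosome. Mammalian cells translate in the cytosol and in mitochondria. Both sets of enzymes are encoded in the nucleus, mostly by separate genes, while Gars (glycine) and Kars (lysine) each supply both compartments from a single gene. In the cytosol several enzymes are held in the multisynthetase complex. Many cytosolic synthetase genes are known targets of the stress-induced transcription factor Atf4, whose own mRNA is a known NMD substrate. The enzymes fall into class I and class II by the fold of their catalytic domain, and Eprs (glutamate and proline) carries one domain of each class.

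The libraries held 155391181 and 137937779 gene counts in Smg6-deficient cells and 137643993 and 130888768 in wild-type cells. Smg6 (GRCm38 chromosome 11, 74925823 to 75164448) had 13366 and 11642 counts in Smg6-deficient libraries and 13396 and 14071 in wild-type libraries, with a log2 fold change of -0.21 (SE 0.083) (edgeR adjusted p = 0.089, not passed). Since the labels do not say which part of the gene is altered, this count does not check the genotype. Of 10 ES cell markers, 5 fell and 2 rose, and none was at 0 in any library, with summed levels of 3527 and 3454 CPM in Smg6-deficient libraries and 4794 and 3909 CPM in wild-type libraries. All 11 endoderm markers rose, and their summed level was 2164 and 3266 CPM in Smg6-deficient libraries and 573 and 513 CPM in wild-type libraries. Of 10 fibroblast feeder markers, 3 rose and none fell (edgeR; 0 lower and 5 higher at an unadjusted p under 0.05), with sums of 1551 and 1425 CPM in Smg6-deficient libraries and 1232 and 889 CPM in wild-type libraries. Over all genes tested, 20.5% rose and 19.2% fell. The ES cell list had 20% higher, near the share of all genes, and 50% lower. The endoderm list had 100% higher and the fibroblast list 30%. Neither the endoderm nor the fibroblast list had a marker at 0 in all libraries. The part of these cells in the synthetase levels was not tested, and fewer cells of a type cannot be told apart from less RNA per cell.

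Here CPM is the count scaled to the TMM-adjusted library size, RPKM is the authors' deposited value per kilobase of gene and scaled to read number, and every fold change sets Smg6-deficient cells over wild-type cells. A gene passed where the adjusted p of edgeR's quasi-likelihood test (Benjamini-Hochberg over 20895 genes) was under 0.05. Means are given ± SD with n = 2 in each group.

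Promoter sequence was available for 27 of the members (13 cytosolic, 14 mitochondrial), from RefSeq on GRCm38.p6, and the 250 bases before the annotated start were searched on both strands for 3 motifs. A member gene counted if any of its windows held the motif, whereas the share over all genes is per single window, so the units are unlike. TGATGNAA is the core of the C/EBP-ATF response element that Atf4 binds. It was present for 3 of 13 cytosolic and 0 of 14 mitochondrial genes, against 3.45% of 32851 windows of all genes. CACGTG, the E-box bound by Myc-family factors, was present for 3 cytosolic and 0 mitochondrial genes, against 6.02% of all windows. A motif resembling the site of NRF1, a regulator of respiratory genes, was present for the cytosolic genes Kars and Tars. It was present for 0 mitochondrial genes, against 3.74% of all windows. No match overlapped another. The cytosolic stretches with the first motif are shown because Atf4 mRNA was higher in Smg6-deficient cells. The match, which reads on the opposite strand in each, is in capitals, and the flanks are 30 bases long or end at the start. Aars is from chr8:111033700-111033767 (plus strand), Gars from chr6:55037941-55038000 (plus strand) and Tars from chr15:11399659-11399703 (minus strand).
Aars: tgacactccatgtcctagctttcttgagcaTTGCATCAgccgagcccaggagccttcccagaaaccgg
Gars: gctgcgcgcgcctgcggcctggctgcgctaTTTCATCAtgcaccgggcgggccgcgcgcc
Tars: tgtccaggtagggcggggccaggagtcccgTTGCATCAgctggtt
The E-box stretches of Aars (chr8:111033666-111033731, plus strand), Farsb (chr1:78488901-78488966, minus strand) and Iars (chr13:49682031-49682096, plus strand) are given for the same comparison with Myc-type sites.
Aars: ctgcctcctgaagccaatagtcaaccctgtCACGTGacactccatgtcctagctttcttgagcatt
Farsb: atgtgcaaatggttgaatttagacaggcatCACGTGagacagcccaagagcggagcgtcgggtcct
Iars: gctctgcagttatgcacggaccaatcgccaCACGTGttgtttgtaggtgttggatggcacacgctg
None of the 5 genes shown (Aars, Gars, Tars, Farsb and Iars) passed the test, and a match in this window is a description only.

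On the deposited RPKM scale the cytosolic enzymes stood well above the mitochondrial ones. The gene length used for RPKM is not stated, and the order of genes depends on it. Aars, for example, had more CPM than Gars in every library but less RPKM. Leaving out Lars2, every cytosolic gene had a higher mean RPKM than every mitochondrial gene in both groups. Gars was the highest cytosolic gene, at 190.97 and 191.34 RPKM in Smg6-deficient libraries and 181.7 and 155.83 RPKM in wild-type libraries, followed by Nars (asparagine) at 175.3 ± 6.61 RPKM in Smg6-deficient and 158.7 ± 9.67 RPKM in wild-type cells. Kars, at 125.1 RPKM in Smg6-deficient and 99.1 RPKM in wild-type cells, and Eprs, at 108.3 RPKM in Smg6-deficient and 94.9 RPKM in wild-type cells, came next, and neighbours further down, such as Tars, Lars and Dars with 84.9, 82.3 and 81.7 RPKM in wild-type cells, lay within the spread of their own replicates. The lowest cytosolic gene was Farsa, the catalytic subunit of the phenylalanine enzyme, with 20.76 and 18.99 RPKM in Smg6-deficient libraries and 19.45 and 16.75 RPKM in wild-type libraries. Its partner subunit Farsb stood higher, at 67.8 ± 0.47 RPKM in Smg6-deficient and 63.9 ± 10.6 RPKM in wild-type cells. Among mitochondrial enzymes other than Lars2 the highest was Rars2 (arginine), at 17.8 ± 0.16 RPKM in Smg6-deficient and 16.1 ± 1.34 RPKM in wild-type cells, and the lowest was Wars2 (tryptophan), at 1.26 and 1.19 RPKM in Smg6-deficient libraries and 0.61 and 0.67 RPKM in wild-type libraries.

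**Figure D1:**
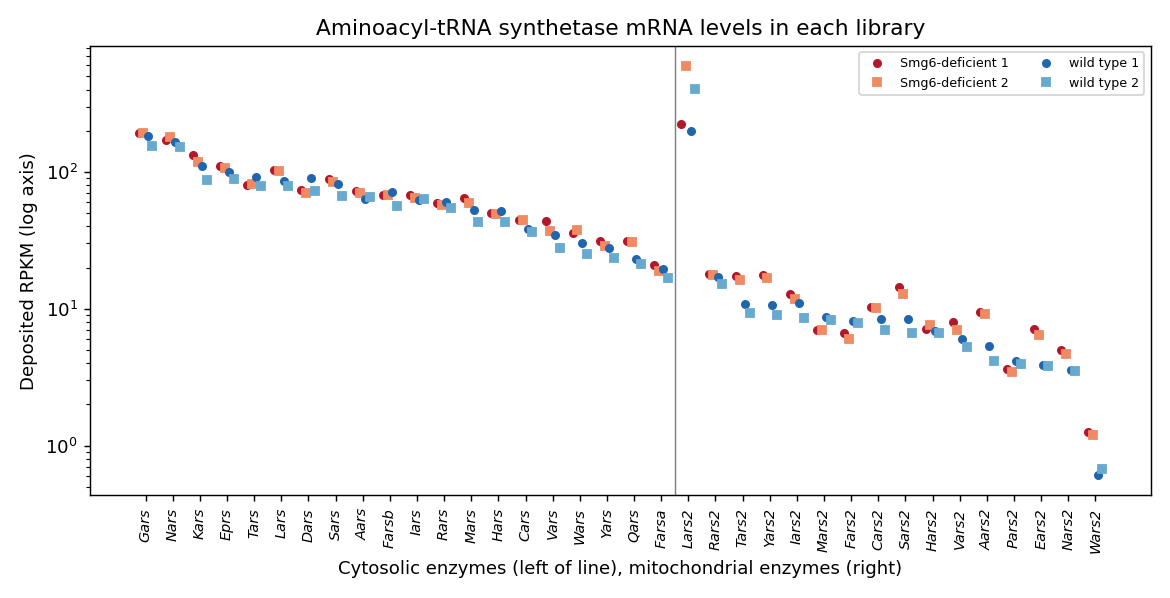
Deposited RPKM (log axis) of each cytosolic enzyme gene (left of the line) and mitochondrial enzyme gene (right) in the 2 Smg6-deficient and 2 wild-type libraries, 1 point per library. Apart from Lars2, all mitochondrial genes lie below the lowest cytosolic gene, Farsa, in mean level.

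Summed over the 20 cytosolic genes, the level was 1540 and 1500 RPKM in Smg6-deficient libraries and 1444 and 1259 RPKM in wild-type libraries. Over the 15 mitochondrial genes without Lars2 it was 145.5 and 138.0 RPKM in Smg6-deficient libraries and 113.7 and 99.8 RPKM in wild-type libraries. The cytosolic sum was therefore 10.6 and 10.9 times the mitochondrial sum in Smg6-deficient libraries and 12.7 and 12.6 times in wild-type libraries. All Smg6-deficient ratios lay below all wild-type ratios. An exact two-sided permutation test of 2 against 2 libraries cannot go below p = 0.33, so the difference was not tested. The divisor behind RPKM was taken as a median over genes, relative to the count total. It was 0.00364 and 0.00384 in Smg6-deficient libraries and 0.00358 and 0.00379 in wild-type libraries, so it was larger in replicate 2 of both groups. The sums depend on it, whereas their ratio within a library does not.

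Of the 16 mitochondrial genes, 10 rose, 1 fell and 5 did not pass, with a median log2 fold change of 0.48 (0.47 without Lars2). Of the 20 cytosolic genes, 7 rose and 13 did not pass, with a median of 0.23. None fell by edgeR, 0 were lower at an unadjusted p under 0.05, and neither DESeq2 nor limma-voom called any lower. Over all genes tested, 20.5% rose and 19.2% fell (39.7% in either direction), with a median of 0.0080. The median was -0.76 for 1040 X-linked genes and 0.031 for 19430 autosomal genes, and the cause of this was not tested. The cytosolic and mitochondrial sets were not tested against each other. All 6 members with a log2 fold change above 0.7 were mitochondrial. The cut of 0.7 was not set beforehand, and the share of all genes above it was not computed. In CPM, 17 of 20 cytosolic and 15 of 16 mitochondrial genes had libraries that did not overlap between groups, against 73.2% of all genes. On deposited RPKM the groups of Dars, Farsa and Rars overlapped as well, and the share of all genes on that scale was not computed. Of the calls, 7 of the 10 rises of mitochondrial genes, but only 1 of the 7 of cytosolic genes, held under all 17 alternative settings and left-out libraries. The number of cytosolic genes higher changed with the library left out, and so did the number over all genes. The cytosolic median was 0.27 without Smg6-deficient replicate 1 and 0.22 without Smg6-deficient replicate 2. It was 0.30 without wild-type replicate 1 and 0.16 without wild-type replicate 2.

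**Figure D2:**
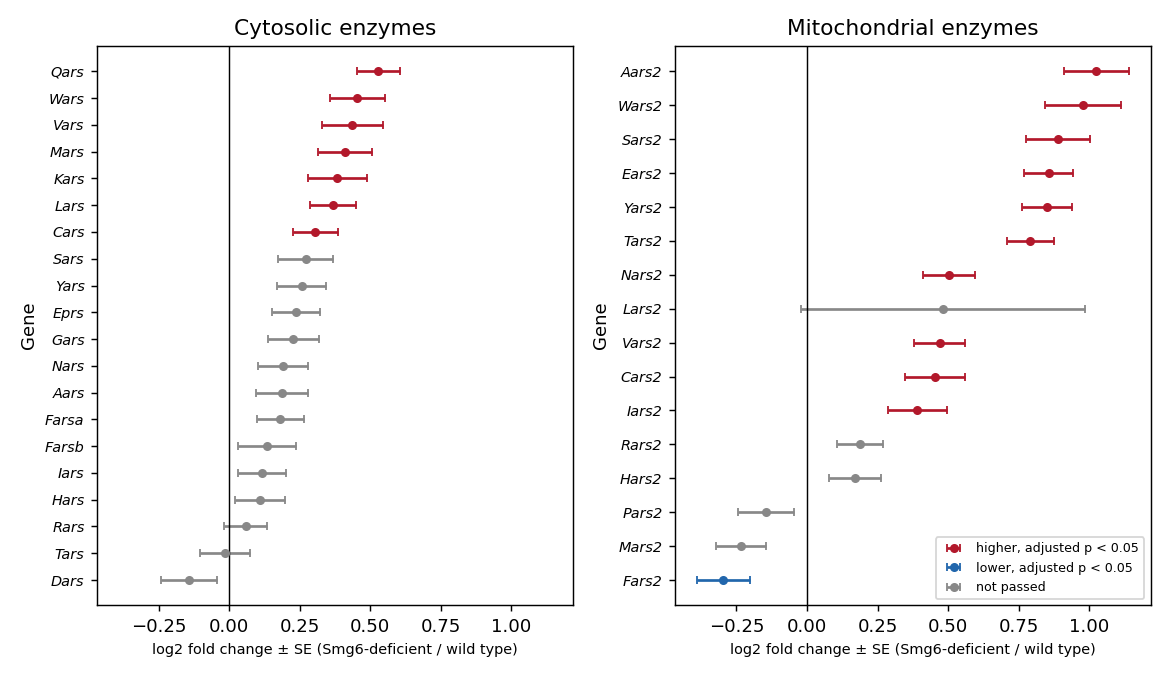
Log2 fold change ± SE (edgeR, Smg6-deficient over wild type) of the 20 cytosolic genes (left panel) and the 16 mitochondrial genes (right panel), with red for genes that rose, blue for the gene that fell and grey for those that did not pass. The cytosolic values run from -0.14 for Dars to 0.53 for Qars, and the mitochondrial values from -0.30 for Fars2 to 1.02 for Aars2.

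Aars2, the mitochondrial alanine enzyme (chromosome 17, 45506841 to 45520843), had the largest change of the members. It stood at 36.8 and 37.8 CPM in Smg6-deficient libraries and at 20.1 and 16.6 CPM in wild-type libraries. Both Smg6-deficient values lay well above both wild-type values (log2 fold change 1.02, SE 0.115, edgeR adjusted p = 0.0011). Wars2, for tryptophan (chromosome 3, 99141068 to 99239186), had 8.78 and 8.68 CPM in Smg6-deficient libraries and 4.10 and 4.77 CPM in wild-type libraries (log2 fold change 0.98, SE 0.14, edgeR adjusted p = 0.0022). Wars2 was the least abundant member, with 574 to 1339 counts a library. Sars2, for serine, had 31.9 and 30.1 CPM in Smg6-deficient libraries and 18.2 and 15.3 CPM in wild-type libraries (log2 fold change 0.89, SE 0.11). Ears2 attaches glutamate in mitochondria to the tRNAs of both glutamate and glutamine, since mitochondria make glutaminyl-tRNA by amidation rather than with an enzyme of their own. It stood at 42.6 and 40.9 CPM in Smg6-deficient libraries and at 22.5 and 23.7 CPM in wild-type libraries (log2 fold change 0.86, SE 0.087, edgeR adjusted p = 0.00078). Both groups were tight for this gene, and their gap was several times the spread within either.

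Yars2, for tyrosine, and Tars2, for threonine, rose by similar amounts. Yars2 had 64.6 and 64.7 CPM in Smg6-deficient libraries and 37.9 and 33.8 CPM in wild-type libraries (log2 fold change 0.85, SE 0.090), and Tars2 had 89.8 and 88.3 CPM in Smg6-deficient libraries and 53.8 and 49.2 CPM in wild-type libraries (0.79, SE 0.083). Nars2, for asparagine, rose less, at 24.5 and 24.4 CPM in Smg6-deficient libraries and 16.9 and 17.7 CPM in wild-type libraries (0.50, SE 0.092, edgeR adjusted p = 0.0062). The rises of Aars2, Wars2, Sars2, Ears2, Yars2, Tars2 and Nars2 are the 7 that held under every alternative.

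Vars2, Cars2 and Iars2, for valine, cysteine and isoleucine, rose by log2 fold changes of 0.47, 0.45 and 0.39 (edgeR adjusted p = 0.0072, 0.015 and 0.025). Their calls were less firm. That of Vars2 ended without Smg6-deficient replicate 1 (edgeR adjusted p = 0.060), that of Cars2 when Smg6-deficient replicate 2 was left out (edgeR adjusted p = 0.093), and that of Iars2 without either (edgeR adjusted p = 0.10 and 0.060) and with a correction for gene length (log2 fold change 0.24, edgeR adjusted p = 0.13). Limma-trend on log2(RPKM + 1) called none of the 3, with limma-trend adjusted p of 0.070 for Vars2, 0.069 for Cars2 and 0.14 for Iars2. Iars2 shares 2034 exonic bases, 22.9% of its exons, with Rab3gap2 on the opposite strand, which had 11988 and 9878 counts in Smg6-deficient libraries and 8156 and 7140 in wild-type libraries, and the kit did not mark strand, so that reads there cannot be assigned. Cars2 shares 422 exonic bases with Naxd in the same way. Other members overlap genes too. Aars shares 1326 exonic bases, 14.3% of its exons, with Exosc6 on the same strand, which is absent from the deposited identifiers. Fars2 shares 501 with Nrn1 and 115 with Lyrm4, and Hars and Hars2 share 195 with each other, all on opposite strands. The part of such overlaps in the levels, calls and ratios was not tested.

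Fars2, the mitochondrial phenylalanine enzyme, was the only member called lower, at 16.4 and 15.8 CPM in Smg6-deficient libraries and 19.51 and 20.02 CPM in wild-type libraries (log2 fold change -0.30, SE 0.094, edgeR adjusted p = 0.045). The call lay close to the threshold and ended when Smg6-deficient replicate 1 (edgeR adjusted p = 0.23) or 2 (0.34) was left out, with no filter (0.082) and on log2(RPKM + 1) (limma-trend adjusted p = 0.067). Mars2, for methionine, had 23.6 and 24.9 CPM in Smg6-deficient libraries and 28.4 and 28.7 CPM in wild-type libraries (log2 fold change -0.23, SE 0.088), which did not pass (edgeR adjusted p = 0.075) but did with upper-quartile factors, library size alone, TMM from autosomal genes and the filter of 50 counts, and with the gene length correction (-0.43, edgeR adjusted p = 0.0096). Pars2, for proline, had 13.2 CPM in both Smg6-deficient libraries and 14.5 and 14.7 CPM in wild-type libraries (-0.14, edgeR adjusted p = 0.28). These were the 3 mitochondrial genes with a negative fold change. The coding sequence of Mars2 and of Pars2 lies in 1 exon, as for no other member, though the Pars2 transcript has 2 exons in all. That of Fars2 spans 6 exons and that of the remaining members 5 to 33. A relation of exon number to fold change was not tested. Rars2 (log2 fold change 0.19, SE 0.081) and Hars2 (0.17, SE 0.092) did not pass (edgeR adjusted p = 0.11 and 0.19).

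Lars2, the mitochondrial leucine enzyme (chromosome 9, 123366927 to 123462666), behaved unlike the rest. It had 1008 and 2822 CPM in Smg6-deficient libraries and 874 and 1870 CPM in wild-type libraries, so replicate 2 was more than 2 times replicate 1 in both groups and the groups overlapped. Its log2 fold change was 0.48 with an SE of 0.50 (edgeR adjusted p = 0.48), and leaving out Smg6-deficient replicate 2 gave -0.43 (edgeR adjusted p = 0.26), whereas leaving out Smg6-deficient replicate 1 gave 1.05 (edgeR adjusted p = 0.0041). Of 8216 identifiers with a mean above 20 CPM, 6 had a replicate 2 over replicate 1 ratio above 2 in both groups: Lars2, Gm15564, Rmrp, the RNA component of ribonuclease MRP, and 3 identifiers without a symbol. They were chosen after their values were seen. Gm15564, an antisense transcript on chromosome 16, kept a nearly fixed ratio to Lars2, with 9.58 and 8.88 Lars2 counts per Gm15564 count in Smg6-deficient libraries and 9.73 and 9.25 in wild-type libraries. The longest protein-coding Lars2 transcript has 3894 bases, with the coding part ending at base 2908. It shares 22 words of 31 bases with Gm15564, between bases 3278 and 3329, and 26 with AA474408, between bases 3172 and 3313, all after the stop codon. AA474408 is among the deposited identifiers but was not 1 of the 6 above. Whether single reads of 50 bases were shared over these stretches was not tested, nor was the part of this sequence in the Lars2 counts.

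**Figure D3:**
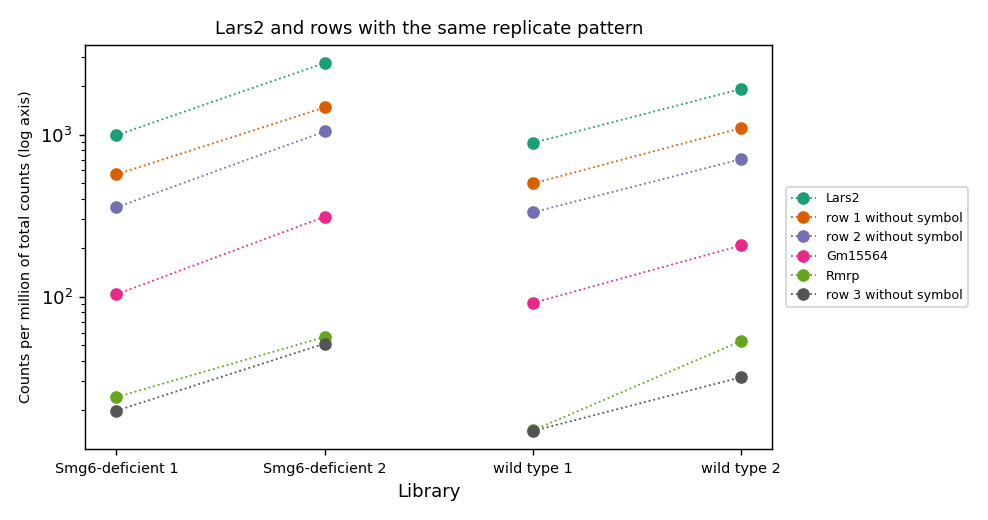
CPM of the total counts (log axis) for Lars2 and the 5 other identifiers whose replicate 2 exceeded replicate 1 by more than 2 times in both groups, in the 2 Smg6-deficient and 2 wild-type libraries, with dotted lines joining libraries of 1 group. Lars2, Gm15564 and the 3 identifiers without a symbol change by similar factors between replicates.

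Of the cytosolic enzymes, Qars, for glutamine (chromosome 9, 108507706 to 108515941), rose most and was the one whose call held throughout. It had 225.3 and 234.5 CPM in Smg6-deficient libraries and 160.8 and 157.9 CPM in wild-type libraries (log2 fold change 0.53, SE 0.077, edgeR adjusted p = 0.0027). Qars also has the most annotated NMD transcripts of the members, 10 beside 8 coding ones in GENCODE M21, and a gene count cannot say which of them contributed. Wars, for tryptophan, had 144.5 and 159.0 CPM in Smg6-deficient libraries and 118.1 and 103.5 CPM in wild-type libraries (log2 fold change 0.45, SE 0.098), and Vars, for valine, had 288.8 and 256.6 CPM in Smg6-deficient libraries and 217.1 and 185.9 CPM in wild-type libraries (0.44, SE 0.11). For both, all Smg6-deficient values lay above all wild-type values. Mars, for methionine, rose by 0.41, Kars by 0.38, Lars, for leucine, by 0.37 and Cars, for cysteine, by 0.30, with edgeR adjusted p from 0.012 for Lars to 0.027 for Kars.

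Each of these 6 other cytosolic genes lost its call when 1 or the other Smg6-deficient library was left out, and Cars, Kars and Lars lost it in both cases. Without replicate 1 the calls of Cars, Kars, Lars, Mars and Vars ended (edgeR adjusted p from 0.071 for Lars to 0.14 for Kars), without replicate 2 those of Cars, Kars, Lars and Wars (from 0.055 for Kars to 0.23 for Cars), on log2(RPKM + 1) all 6 (limma-trend adjusted p from 0.063 for Wars to 0.16 for Kars), and with the gene length correction that of Cars (log2 fold change 0.21, edgeR adjusted p = 0.058). Mars shares 68 exonic bases with the stress factor gene Ddit3 on the opposite strand, and Ddit3 had 3432 and 3963 counts in Smg6-deficient libraries and 1749 and 1839 in wild-type libraries, against 39317 and 33469 Mars counts in Smg6-deficient libraries and 28548 and 23592 in wild-type libraries.

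Of the 13 cytosolic genes that did not pass, the nearest to the threshold were Yars, for tyrosine (log2 fold change 0.26, edgeR adjusted p = 0.052), Eprs (0.24, 0.062) and Sars, for serine (0.27, 0.064). Yars and Eprs passed by limma-voom (adjusted p = 0.048 and 0.044), and all 3 passed without wild-type replicate 1, while Eprs turned to -0.085 with the gene length correction (edgeR adjusted p = 0.58). Gars stood at 532.6 and 562.7 CPM in Smg6-deficient libraries and 488.9 and 446.4 CPM in wild-type libraries (0.23, edgeR adjusted p = 0.084), and Aars, for alanine, at 783.5 and 803.3 CPM in Smg6-deficient libraries and 658.7 and 734.3 CPM in wild-type libraries (0.19, edgeR adjusted p = 0.15). Nars (0.19), Farsa (0.18), Farsb (0.14), Iars, for isoleucine (0.12), Hars, for histidine (0.11), and Rars, for arginine (0.058), also had positive values and did not pass. Tars, for threonine, had 247.4 and 266.0 CPM in Smg6-deficient libraries and 270.3 and 248.5 CPM in wild-type libraries, so that the groups overlapped (-0.015, edgeR adjusted p = 0.90). Dars, for aspartate, had the lowest value, with 215.3 and 214.7 CPM in Smg6-deficient libraries and 256.2 and 218.3 CPM in wild-type libraries (-0.14, edgeR adjusted p = 0.29), and it passed as lower only without wild-type replicate 2 (-0.27, edgeR adjusted p = 0.011). Wild-type replicate 2 was below wild-type replicate 1 for 17 of 20 cytosolic genes (median log2 ratio -0.13), whereas Smg6-deficient replicate 2 was below replicate 1 for 6 of 20 (median 0.039).

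For 13 amino acids a cytosolic and a mitochondrial gene have matching symbols (such as Aars and Aars2), which allows a comparison within each library. The cytosolic to mitochondrial RPKM ratio was lower in both Smg6-deficient libraries than in both wild-type libraries for 9 pairs, higher for 1, and overlapping for 3. Groups without overlap were common, at 73.2% of all single genes in CPM. The share for ratios of other gene pairs was not computed. The mitochondrial gene alone passed as higher in 6 pairs (alanine, isoleucine, asparagine, serine, threonine and tyrosine), both genes in 3 (cysteine, valine and tryptophan), the cytosolic gene alone in 2 (leucine and methionine), and neither in 2 (histidine and arginine). For alanine the log2 ratio was 2.94 and 2.94 in Smg6-deficient libraries and 3.56 and 3.998 in wild-type libraries. For threonine it was 2.21 and 2.34 in Smg6-deficient libraries and 3.08 and 3.09 in wild-type libraries, and here the cytosolic gene had a fold change near 0 and the mitochondrial gene carried the difference. For valine it was 2.46 and 2.40 in Smg6-deficient libraries and 2.52 and 2.41 in wild-type libraries, as both genes had risen by nearly the same amount. For methionine it was higher in Smg6-deficient libraries, at 3.20 and 3.07, against 2.60 and 2.37 in wild-type libraries. Glutamate, proline and phenylalanine also have genes for both compartments, but their symbols do not match one to one, and their ratios were computed later, with the other ratios known. The log2 ratio of Eprs to Ears2, for glutamate, was 3.95 and 4.05 in Smg6-deficient libraries and 4.70 and 4.54 in wild-type libraries, so it was lower in Smg6-deficient cells. The ratio was higher in Smg6-deficient cells for proline, where Eprs to Pars2 gave 4.90 and 4.95 in Smg6-deficient libraries and 4.596 and 4.493 in wild-type libraries. It was also higher for phenylalanine, where Farsa to Fars2 gave 1.65 and 1.65 in Smg6-deficient libraries and 1.25 and 1.09 in wild-type libraries, and Farsb to Fars2 gave 3.37 and 3.48 in Smg6-deficient libraries and 3.13 and 2.84 in wild-type libraries. In these 3 amino acids with a higher ratio (methionine, proline and phenylalanine) the mitochondrial gene had a negative fold change. These ratios have no test.

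**Figure D4:**
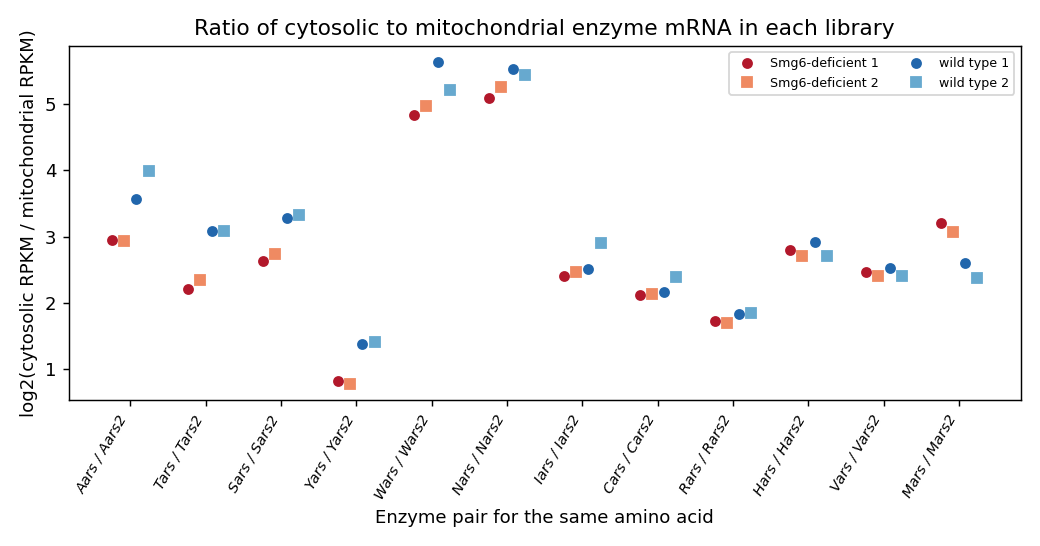
Log2 ratio of cytosolic to mitochondrial RPKM for 12 of the 13 pairs with matching symbols (the leucine pair is left out because of the Lars2 counts, and glutamate, proline and phenylalanine are not drawn), 1 point per library for the 2 Smg6-deficient and 2 wild-type libraries, ordered by the difference between group means. Alanine, threonine and serine show the lowest Smg6-deficient ratios relative to wild type, and methionine is the one pair drawn whose ratio is higher in both Smg6-deficient libraries.

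Grouped by catalytic class, 6 of 9 cytosolic class I genes rose (median log2 fold change 0.37) and 1 of 10 class II genes, Kars (median 0.18), while Eprs, with both classes, did not pass. Among mitochondrial genes the classes were closer, with 6 of 9 class I genes higher (median 0.47) and 4 of 7 class II genes higher and 1 lower (median 0.50). Of the 8 enzymes of the multisynthetase complex, 4 rose (Kars, Lars, Mars and Qars; median 0.30), and of the 12 cytosolic enzymes outside it 3 did (Cars, Vars and Wars; median 0.21). Of 12 cytosolic genes widely listed as Atf4-dependent 4 rose (median 0.25), and of the other 8 cytosolic genes 3 rose (median 0.16). An annotated NMD transcript was present in 21 members, of which 11 rose and 1 fell (median 0.37), and absent from 15, of which 6 rose (median 0.23). For the mitochondrial genes alone these were 7 higher and 1 lower of 9 with such a transcript (median 0.50) and 3 of 7 without (median 0.19), and for the cytosolic genes 4 of 12 (median 0.21) and 3 of 8 (median 0.25). Of the 6 members with a log2 fold change above 0.7, 4 have such a transcript and 2, Aars2 and Ears2, have none. Over all genes tested, 20.5% rose and 19.2% fell, and some of these small groups, such as the 12 cytosolic enzymes outside the complex, lay near the share that rose. The differences between these groups were not tested.

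Of 13 genes for partners of charging, 1 rose and 3 fell, with a median of -0.085. These are 7.69% higher and 23.1% lower, against 20.5% higher and 19.2% lower over all genes, so the share that fell was near that of all genes. Pstk, the kinase that acts on seryl-tRNA in selenocysteine synthesis, had 28.0 and 28.6 CPM in Smg6-deficient libraries and 41.7 and 41.0 CPM in wild-type libraries (log2 fold change -0.55, SE 0.082, edgeR adjusted p = 0.0030). Aimp1 and Eef1e1, non-enzymatic scaffold proteins of the multisynthetase complex, fell by 0.31 and 0.30 on the log2 scale (edgeR adjusted p = 0.019 and 0.025), and the third, Aimp2, had 0.18 (edgeR adjusted p = 0.24). The call of Aimp1 ended when Smg6-deficient replicate 1 (edgeR adjusted p = 0.18) or 2 (0.20) was left out. Of the 3 subunits of the mitochondrial amidotransferase, which converts the glutamyl-tRNA made by Ears2, Gatb rose (0.49, edgeR adjusted p = 0.012), though not when Smg6-deficient replicate 1 was left out (0.46, edgeR adjusted p = 0.082), while Qrsl1 (0.26, edgeR adjusted p = 0.058) and Gatc (0.19, edgeR adjusted p = 0.20) did not pass. Eef1e1, Aimp2, Qrsl1 and Gatc were picked after their values were seen.

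Among genes of tRNA maturation and export, 9 of 21 tested rose (42.9%, against 20.5% of all genes) and 2 fell (9.52%, against 19.2%), with a median of 0.23. Trit1, which adds an isopentenyl group next to the anticodon, had 51.0 and 50.9 CPM in Smg6-deficient libraries and 22.2 and 24.0 CPM in wild-type libraries (log2 fold change 1.14, SE 0.087, edgeR adjusted p = 0.00032). Mto1, which modifies the wobble uridine of mitochondrial tRNAs, had 36.3 and 35.9 CPM in Smg6-deficient libraries and 17.9 and 15.8 CPM in wild-type libraries (1.10, SE 0.10), and the tRNA methyltransferase Trmt1 rose by 0.60 (SE 0.079). Gtpbp3 and Trmu, the other enzymes of the mitochondrial wobble modification, rose by 0.63 and 0.66 and were picked after their values were seen. Of 10 mitochondrial translation factors 1 rose (against 20.5% of all genes), the release factor Mtrf1l, with 11.5 and 12.1 CPM in Smg6-deficient libraries and 4.15 and 3.70 CPM in wild-type libraries (1.59, SE 0.13, edgeR adjusted p = 0.00036), and none fell by edgeR (0 at an unadjusted p under 0.05, and 0 by DESeq2 and limma-voom). The median of this list was 0.065.

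In the amino acid response list, 4 of 13 genes rose (30.8%, against 20.5% of all genes) and none fell (edgeR; 0 lower at an unadjusted p under 0.05, and 0 by DESeq2 and limma-voom), with a median of 0.15. Atf4 had 543.3 and 633.4 CPM in Smg6-deficient libraries and 218.5 and 209.5 CPM in wild-type libraries. Chac1, a glutathione-degrading enzyme, rose by 1.78 and Ddit3 by 0.98. Asns, asparagine synthetase and a known Atf4 target, had 463.4 and 514.6 CPM in Smg6-deficient libraries and 655.6 and 504.7 CPM in wild-type libraries (-0.25, edgeR adjusted p = 0.19), a gene chosen with its value in view.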

How the data were processed

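RNA was extracted with TRIzol and sequenced as single reads of 50 bases from TruSeq v2 libraries, which do not mark strand, per the labels' protocols. The submitters' processing notes name TopHat2 2.0.9 and mm10. How reads were counted, with which annotation and with what treatment of multiply aligned reads, is not given in the sources used here. The authors deposited whole-number read counts and RPKM values per Ensembl gene for each library. The read total and the gene length behind RPKM are not stated.

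Genes with low counts were removed (filterByExpr, minimum count 10), libraries were scaled by TMM, and genotype was tested by the quasi-likelihood test of edgeR 4.0.16 in R 4.3.3. SE is the absolute log2 fold change over the square root of F. Symbols and positions came from GENCODE M21 (GRCm38), which named 35449 identifiers. Members and gene lists were chosen with earlier results of these data known. Named genes were all members, Atf4 and up to 3 called genes per partner list by adjusted p. The fit was also checked on simulated counts. Libraries of a group differed beyond counting error, with a chi-square per degree of freedom of 39.4 in Smg6-deficient and 69.7 in wild-type cells. Alternatives were DESeq2 1.42.0, limma 3.58.1 (voom, and trend on log2(RPKM + 1) and log2(RPKM + 0.1)), other scalings and filters, a gene length correction, a replicate block and leaving out each library, where a lone library is assumed to vary like the other group.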

Additional observations from a re-analysis of the deposited data

How the results depend on the processing

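Every mitochondrial rise of Aars2, Ears2, Nars2, Sars2, Tars2, Wars2 and Yars2, and that of Qars, passed under all 17 alternatives. On log2(RPKM + 1) and log2(RPKM + 0.1), 2700 and 2643 genes passed as higher, with 1 and 1 cytosolic gene higher, 0 and 0 mitochondrial genes lower, 2 and 2 partner genes lower, cytosolic medians of 0.19 and 0.19 and mitochondrial medians of 0.37 and 0.41. The cytosolic median was 0.20 with upper-quartile factors, 0.18 by library size alone, 0.19 with TMM from autosomal genes, 0.19 with the filter of 50 counts in 2 libraries, and 0.14 with the gene length correction, with or without the replicate block. The mitochondrial median under these settings was 0.44, 0.42, 0.43, 0.43, 0.36 and 0.36, and 2 mitochondrial genes were lower in each. With no filter, 0 mitochondrial and 3 partner genes were lower. Leaving out 1 library gave 2805 to 5578 genes higher and 2300 to 4899 lower, 2 to 14 cytosolic genes higher and 0 to 1 lower (median 0.16 to 0.30), 8 to 11 mitochondrial genes higher and 0 to 1 lower (median 0.45 to 0.54), and 1 to 10 partner genes lower.

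Sign changes were those of Eprs with the length correction (-0.085) and with the block as well (-0.077), Farsb without wild-type replicate 2 (-0.0038), Tars without wild-type replicate 1 (0.061) or Smg6-deficient replicate 1 (0.046), and Lars2 without Smg6-deficient replicate 2 (-0.43). With 1 library left out, Farsb ran from -0.0038 to 0.28, Tars from -0.095 to 0.061 and Lars2 from -0.43 to 1.11. None of the values with a changed sign passed, and the cause was not tested. Replicate numbers are shared by 2 pairs only. Replicate 1 minus replicate 2 correlated at 0.20 between the groups across 15278 genes, which are not independent, and 2 pairs are too few to take the numbers as pairing the libraries. With the replicate block 9 cytosolic and 11 mitochondrial genes were higher, Lars2 (0.40, edgeR adjusted p = 0.014), Sars and Yars being added, and 5074 genes higher and 4613 lower over all. With the block and the gene length correction together, 6 cytosolic and 10 mitochondrial genes were higher and these 3 did not pass, Lars2 at 0.21 (edgeR adjusted p = 0.17), Sars at 0.20 (0.090) and Yars at 0.17 (0.10).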
